A study of Sus scrofa with 18 samples.

Results

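The macrophage and C1q genes described here are the 10 rows of the deposited pig count table whose symbols are C1QA, C1QB, C1QC, CD163, CD68, CSF1R, MRC1, CD14, AIF1 and TYROBP. All 10 symbols were present among the 27339 genes of the table, and all 10 were among the 12895 genes with enough counts to be tested. Messenger RNA was sequenced from double knock-in (DIK) tumours and wild-type (WT) normal tissue, with 3 libraries for each of the labels nose, mouth and scrotum in each genotype. The DIK pigs carry elements of the Tet-on system, in which doxycycline switches on a gene, and of the phiC31 integrase system. Both genotypes received doxycycline from 7 months of age and were sampled 8 months after that. The 9 DIK libraries are of tumours from 1 founder, so they describe 1 animal. How many WT animals were sampled is not stated. The p-values therefore measure the spread between these libraries, which may be technical.

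C1q is the recognition molecule of the classical complement pathway. It is built from the A, B and C chains, binds to antibody and to dying cells, and is made mainly by macrophages. CSF1R is the receptor through which the ligands CSF1 and IL34 keep macrophages alive. CD163 takes up haemoglobin bound to haptoglobin and is, in pigs, also the receptor for the reproductive and respiratory syndrome virus. MRC1 is the mannose receptor, CD68 a glycoprotein of late endosomes and lysosomes, and CD14 a co-receptor for bacterial lipopolysaccharide. AIF1 is a calcium-binding protein of the macrophage cytoskeleton, and TYROBP is the adaptor that passes signals from receptors such as TREM2. CD68, MRC1, CD14 and TYROBP are not restricted to macrophages: MRC1 is also made by lymphatic endothelium and TYROBP by natural killer cells and neutrophils.

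Library totals ran from 418665 counts (WT nose replicate 1) to 5041470 counts (WT nose replicate 3), and the 10 genes together held from 50 counts to 1366 counts in a library. Levels are CPM, the count rate after TMM scaling of the library totals, on which 3 counts in a library equal 0.478 to 5.74 CPM. Genes that mark body position went against 2 of the labels. Posterior HOX genes, which are silent in the head, summed to 11.7 to 20.4 CPM in DIK and 41.8 to 70.4 CPM in WT libraries labelled mouth, but to 0.624 to 4.18 CPM in DIK and 3.34 to 6.48 CPM in WT libraries labelled scrotum. The groups are kept as labelled, and every site name rests on those labels. In the tissue itself, 8 keratinocyte genes summed to at least 40020 CPM in every DIK library and to at most 22400 CPM in any WT library, with none of the 8 at 0 in any group. The 22400 CPM is from WT scrotum replicate 2 and stands apart from 1230 and 90.3 CPM in the other WT scrotum libraries. Without that library the test at the scrotum label still called 6 of the 10 genes lower and 1 higher, and results at that label whose call it changes are given with their value without it, an alternative chosen after seeing the data. Counts of list genes called without it are given without the share of all tested genes in that setting. The sum of 9 skeletal muscle genes was 3.16 to 931 CPM in DIK libraries, with MYH7, NEB and TNNT3 at 0 in the mouth tumours. In WT libraries that sum was 89190 to 128200 CPM at the nose, 113600 to 271100 CPM at the scrotum and 1200 to 3638 CPM at the mouth label. At the mouth label 6 smooth muscle genes summed to 41200 to 73480 CPM in WT and 162 to 354 CPM in DIK libraries, with MYOCD at 0 in those tumours. The part of this shift in the results below was not tested, and in bulk tissue fewer macrophages and less RNA per macrophage cannot be told apart.

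The 10 genes did not move as a block. In tumours labelled mouth and scrotum the 3 C1q chains, CSF1R, CD163 and MRC1 were lower than in WT tissue, by log2 differences of -1.16 to -2.46. In tumours labelled nose the test called none of the 10. CD68 was higher in tumours labelled scrotum alone among the labels tested, by a log2 difference of 3.24 ± 0.44 (SE). CD14, AIF1 and TYROBP were not called at any label.

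**Figure D1:**
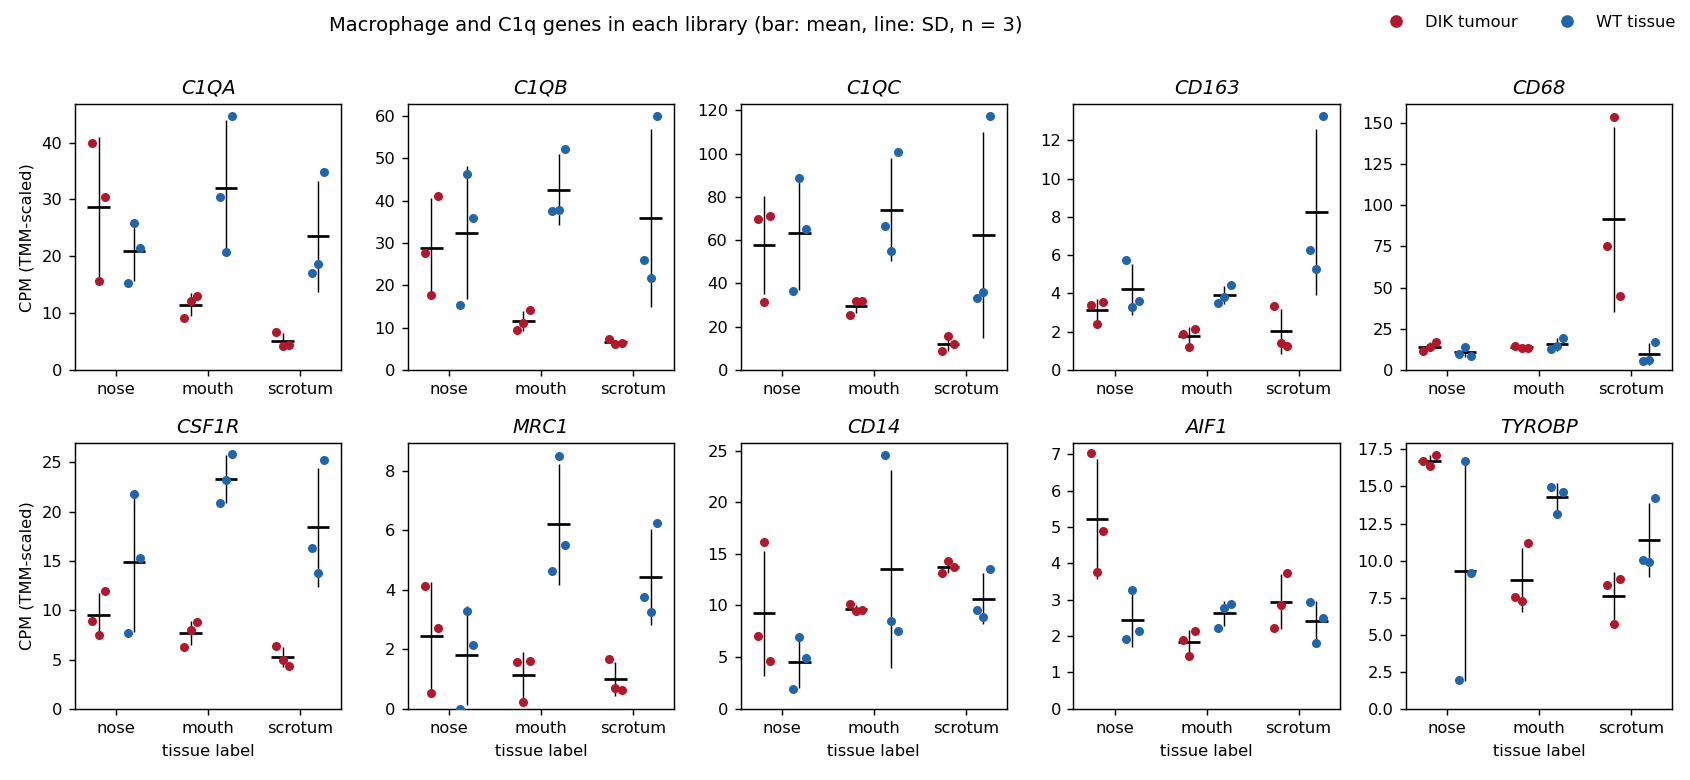
Level of each of the 10 genes in CPM (vertical axis, linear, from 0) for DIK tumour and WT tissue at each tissue label. Each point is 1 library, the bar is the mean and the line the SD of 3 libraries, cut off at 0. The C1q chains and CSF1R lie lower in DIK than in WT at the mouth and scrotum labels, and CD68 reaches 44.9 to 154 CPM in the scrotum tumours.

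C1QA, the A chain, had 9.15, 12.1 and 13.03 CPM in mouth tumours, against 30.5, 20.8 and 44.7 CPM in WT tissue of that label. At the scrotum label it had 6.69, 4.28 and 4.37 CPM in DIK, against 17.1, 18.6 and 34.8 CPM in WT. The groups did not overlap at either label. The log2 differences were -1.48 ± 0.37 at the mouth label (edgeR adjusted p = 0.00318) and -2.17 ± 0.41 at the scrotum label (adjusted p = 0.000351). At the nose label C1QA had 39.9, 15.6 and 30.5 CPM in DIK, against 15.3, 25.8 and 21.5 CPM in WT. There the groups overlapped, and the difference of 0.40 ± 0.37 was not called (adjusted p = 0.406).

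C1QB, the B chain, had 9.47, 11.2 and 14.1 CPM in mouth tumours, against 37.6, 37.8 and 52.2 CPM in WT. It had 7.25, 6.06 and 6.24 CPM in scrotum tumours, against 25.9, 21.7 and 60.0 CPM in WT. Every DIK library lay below every WT library at both labels, with log2 differences of -1.88 ± 0.40 (adjusted p = 0.000946) and -2.45 ± 0.43 (adjusted p = 0.000182). C1QC, the C chain, had 25.6, 31.98 and 31.6 CPM in mouth tumours, against 66.5, 54.8 and 100.6 CPM in WT, and 8.92, 15.7 and 11.9 CPM in scrotum tumours, against 33.4, 36.0 and 117 CPM in WT. Its groups did not overlap there either, with differences of -1.32 ± 0.45 (adjusted p = 0.0229) and -2.36 ± 0.48 (adjusted p = 0.000732). The mouth call of C1QC was lost without DIK mouth replicate 1, 2 or 3 or WT mouth replicate 3 (adjusted p = 0.0545 to 0.101). At the nose label C1QB had 27.6, 17.7 and 41.1 CPM in DIK, against 15.3, 46.2 and 35.8 CPM in WT. C1QC had 69.9, 31.4 and 71.3 CPM in DIK, against 36.3, 88.7 and 65.0 CPM in WT. Both overlapped there, and their differences of -0.25 ± 0.39 and -0.17 ± 0.45 were not called.

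The C1q chains were also summed. The summed level was 44.2 to 58.7 CPM in mouth tumours and 22.5 to 26.0 CPM in scrotum tumours, against 113 to 197 CPM and 76.3 to 212 CPM in the matching WT libraries. At the nose label it was 64.7 to 143 CPM in DIK and 66.9 to 161 CPM in WT. At the mouth label C1QC held 53.9% to 57.9% of the C1q counts in DIK and 48.3% to 50.9% in WT, and C1QB held 20.2% to 24.0% in DIK and 26.5% to 33.3% in WT, without overlap. At the nose label C1QC held 48.6% to 50.9% in DIK and 53.1% to 55.2% in WT. At the scrotum label its shares overlapped, at 39.0% to 60.3% in DIK, where a library held only 36 to 82 C1q counts, and 43.7% to 55.3% in WT. These differences in share were not tested. These are shares of counts, not of molecules, since the genes' transcript lengths were not available. In the RefSeq table of the assembly Sscrofa11.1 the 3 genes are neighbours.

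CSF1R, the macrophage growth factor receptor, had 6.31, 7.996 and 8.77 CPM in mouth tumours, against 20.9, 23.2 and 25.9 CPM in WT. It had 6.41, 4.99 and 4.37 CPM in scrotum tumours, against 16.3, 13.8 and 25.3 CPM in WT. No DIK library reached the lowest WT library at these labels, and the log2 differences were -1.59 ± 0.31 (adjusted p = 0.000487) and -1.78 ± 0.34 (adjusted p = 0.000387). At the nose label CSF1R had 8.96, 7.52 and 11.97 CPM in DIK, against 7.65, 21.8 and 15.3 CPM in WT, with overlap. Its difference of -0.77 ± 0.32 there was not called (adjusted p = 0.0626), but passed the threshold without WT nose replicate 1, the shallowest library (-0.95, adjusted p = 0.0243), or without WT scrotum replicate 2 (-0.78, adjusted p = 0.0445).

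The scavenger receptors CD163 and MRC1 were counted less often, with 257 and 218 counts over all 18 libraries. MRC1 reached the level of the count filter in 2 DIK and 7 WT libraries. It was therefore tested only through the WT libraries, the group in which it was higher at the mouth and scrotum labels. CD163 had 1.89, 1.21 and 2.13 CPM in mouth tumours, against 3.51, 3.81 and 4.44 CPM in WT, without overlap, and differed by -1.16 ± 0.45 (adjusted p = 0.0427). At the scrotum label it had 3.34, 1.43 and 1.25 CPM in DIK, against 6.26, 5.26 and 13.3 CPM in WT, without overlap, and differed by -1.93 ± 0.45 (adjusted p = 0.0021). The mouth call of CD163 was lost without any of DIK nose replicate 3, DIK mouth replicates 1, 2 and 3, WT nose replicates 2 and 3, and WT mouth replicates 2 and 3 (adjusted p = 0.0512 to 0.16), and with DESeq2 (adjusted p = 0.0577). MRC1 had 1.58, 0.242 and 1.60 CPM in mouth tumours, against 4.62, 8.49 and 5.48 CPM in WT, and 1.67, 0.713 and 0.624 CPM in scrotum tumours, against 3.76, 3.24 and 6.25 CPM in WT. It differed by -2.46 ± 0.65 at the mouth label (adjusted p = 0.00453) and by -1.99 ± 0.71 at the scrotum label (adjusted p = 0.0302), where the call was lost without DIK scrotum replicate 2 or 3 or WT scrotum replicate 3 (adjusted p = 0.078 to 0.112). At the nose label MRC1 had 29 counts in DIK and 19 in WT over 3 libraries each, none of them from WT nose replicate 1, and CD163 had 36 counts in DIK and 29 in WT. Lymphatic endothelium also makes MRC1. Of 6 tested genes of its list of 7, 5 were lower and 1 higher at the mouth label, and 1 lower and 1 higher at the scrotum label, with medians of -2.73 and -1.84. The list summed to 35.9 to 64.9 CPM in mouth tumours and 35.5 to 51.0 CPM in scrotum tumours, against 78.9 to 89.4 CPM and 15.5 to 53.0 CPM in WT, with STAB2 at 0 in all tumours. Most of the sum in scrotum tumours was PDPN, the higher gene at both labels, with 37.1, 48.5 and 30.6 CPM. PROX1, the factor that defines those vessels, was at 0 in the scrotum tumours, averaged 0.177 ± 0.307 CPM in mouth tumours, and averaged 4.43 ± 1.22 CPM in WT scrotum and 2.67 ± 0.792 CPM in WT mouth tissue. The part of those vessels in the MRC1 result was not tested.

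CD68, the lysosomal glycoprotein, had 75.5, 154 and 44.9 CPM in scrotum tumours, against 5.43, 6.27 and 17.0 CPM in WT tissue of that label. The 2 groups did not overlap, and the lowest tumour library was above every other library of the series. The log2 difference was 3.24 ± 0.44 (adjusted p = 1.3e-05), a fold of 9.42. In mouth tumours CD68 had 14.5, 13.3 and 13.3 CPM, against 12.4, 14.2 and 19.6 CPM in WT, and in nose tumours 11.6, 14.0 and 16.9 CPM, against 9.56, 13.8 and 8.52 CPM in WT. The differences of -0.17 ± 0.42 and 0.39 ± 0.45 at those labels were not called. The counts of CD68 per 100 C1q counts were 200 to 590 in scrotum tumours and 7.10 to 8.22 in WT scrotum libraries. Among the other 12 libraries, the highest such value was 32.9, in DIK mouth replicate 1.

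**Figure D2:**
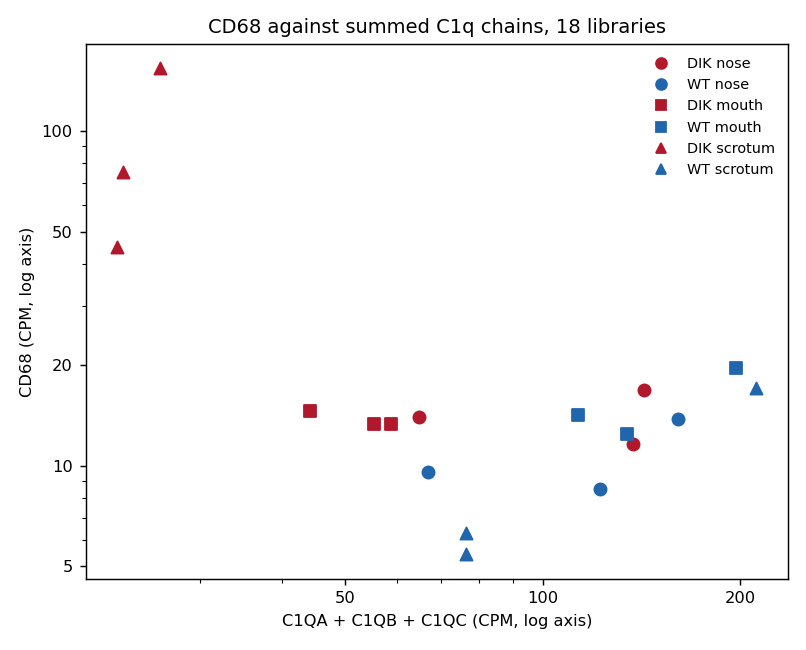
CD68 (vertical axis) against the sum of C1QA, C1QB and C1QC (horizontal axis), both in CPM on log axes, for the 18 libraries. Red symbols are DIK and blue WT, with circles for nose, squares for mouth and triangles for scrotum labels. The 3 scrotum tumours stand at the top left, with 44.9 to 154 CPM of CD68 and 22.5 to 26.0 CPM of C1q.

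Because neither strand setting nor annotation is stated, the genes beside CD68 were read as well. EIF4A1, a translation initiation helicase beside CD68 in the RefSeq table, averaged 538 ± 30.8 CPM in scrotum tumours and 72.4 ± 54.1 CPM in WT. It was also higher at the nose and mouth labels (log2 differences of 3.05 ± 0.41 and 2.54 ± 0.39), where CD68 was not. Between scrotum and mouth tumours EIF4A1 differed by 0.38 ± 0.37 (adjusted p = 0.719), whereas CD68 differed by 2.74 ± 0.43 (adjusted p = 0.00103). MPDU1, a gene of dolichol sugar metabolism on the other side, averaged 12.3 ± 2.40 CPM in scrotum tumours and 5.22 ± 2.89 CPM in WT. Like CD68 it was called higher at the scrotum label alone (1.17 ± 0.42, adjusted p = 0.0319), but between scrotum and mouth tumours it differed by 0.43 ± 0.41 (adjusted p = 0.704). Whether reads of these genes entered the CD68 count was not tested.

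Of 14 tested genes from a list of 16 for endosomes, lipid and scavenging, 1 was higher and 4 were lower at the scrotum label, where 19.4% of all tested genes were called higher and 24% lower, with a median log2 difference of -0.682 beside -0.094 for all genes tested. Without WT scrotum replicate 2, 2 were higher and 6 lower. The genes called lower in the full set were CD36 (-9.27), APOE (-3.65), GPNMB (-2.40) and PLIN2 (-1.27). The GPNMB call was lost without WT scrotum replicate 2 (-0.75 ± 0.57, adjusted p = 0.288). The gene called higher in the full set was CTSL, a lysosomal protease, at 2.40 ± 0.44. CTSD, another lysosomal protease, differed by -0.68 ± 0.30 and was not called.

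CD14 and the adaptor genes were not called at any label. CD14 had 13.1, 14.3 and 13.7 CPM in scrotum tumours, against 9.61, 8.90 and 13.5 CPM in WT, where the ranges overlapped. In WT mouth libraries 1 value stood apart, at 24.6 CPM in replicate 1 beside 8.49 and 7.57 CPM, and the log2 difference of -0.50 ± 0.44 at that label became 0.22 without that library. TYROBP had 7.58, 7.27 and 11.2 CPM in mouth tumours, against 14.99, 13.2 and 14.6 CPM in WT, and 8.36, 5.71 and 8.73 CPM in scrotum tumours, against 10.02, 9.91 and 14.3 CPM in WT. Every tumour library was below every WT library at both labels, yet the differences of -0.72 ± 0.35 (adjusted p = 0.0958) and -0.60 ± 0.37 (adjusted p = 0.198) were not called. Its 95% intervals ran from -1.40 to -0.04 at the mouth and from -1.32 to 0.12 at the scrotum label. TYROBP passed the threshold without WT nose replicate 1 at the mouth label (-0.71, adjusted p = 0.0483) and without WT nose replicate 2 at the nose label (1.21, adjusted p = 0.0247), where its difference was 0.64 ± 0.36. AIF1 had 7.02, 3.76 and 4.90 CPM in nose tumours, against 1.91, 3.27 and 2.13 CPM in WT, without overlap, and its difference of 1.03 ± 0.42 was not called (adjusted p = 0.0535). Leaving out DIK nose replicate 2 gave a call (1.22, adjusted p = 0.0423). AIF1 had 190 counts in all, and its locus overlaps LST1 and NCR3 in the RefSeq table, so its reads may be shared with those genes.

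Counted over the 10 genes, edgeR called 6 lower in mouth tumours, where 24.3% of all tested genes were called lower. In scrotum tumours it called 6 lower and 1 higher, where 24% of all tested genes were called lower and 19.4% higher. The 6 at each of these labels include MRC1, which passed the count filter through the WT libraries. In nose tumours edgeR called 0 of 10, where 42.1% of all tested genes were called in either direction. At an unadjusted p under 0.05 there were 2 at the nose label, AIF1 and CSF1R, while DESeq2 called 0 and limma-voom called 2. By edgeR p these ranked only 5534 and 5728 among the 12895 tested genes, so a large part of all genes passed that cut as well. For the gene lists below, 21.9% of all tested genes were called higher and 20.1% lower at the nose label, and 22.7% were called higher at the mouth label. The median log2 difference of the 10 genes was 0.245 at the nose, -1.24 at the mouth and -1.86 at the scrotum label, beside 0.0343, -0.0377 and -0.094 for all genes tested. Without overlap between the 3 DIK and 3 WT libraries, 8 of the 10 lay below WT at the mouth label and 7 at the scrotum label, where 29.7% and 27.2% of all tested genes did so. With 1 gene (CD68) above WT at the scrotum label the background was 24%, and with 1 (AIF1) above WT at the nose label it was 29.2%.

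**Figure D3:**
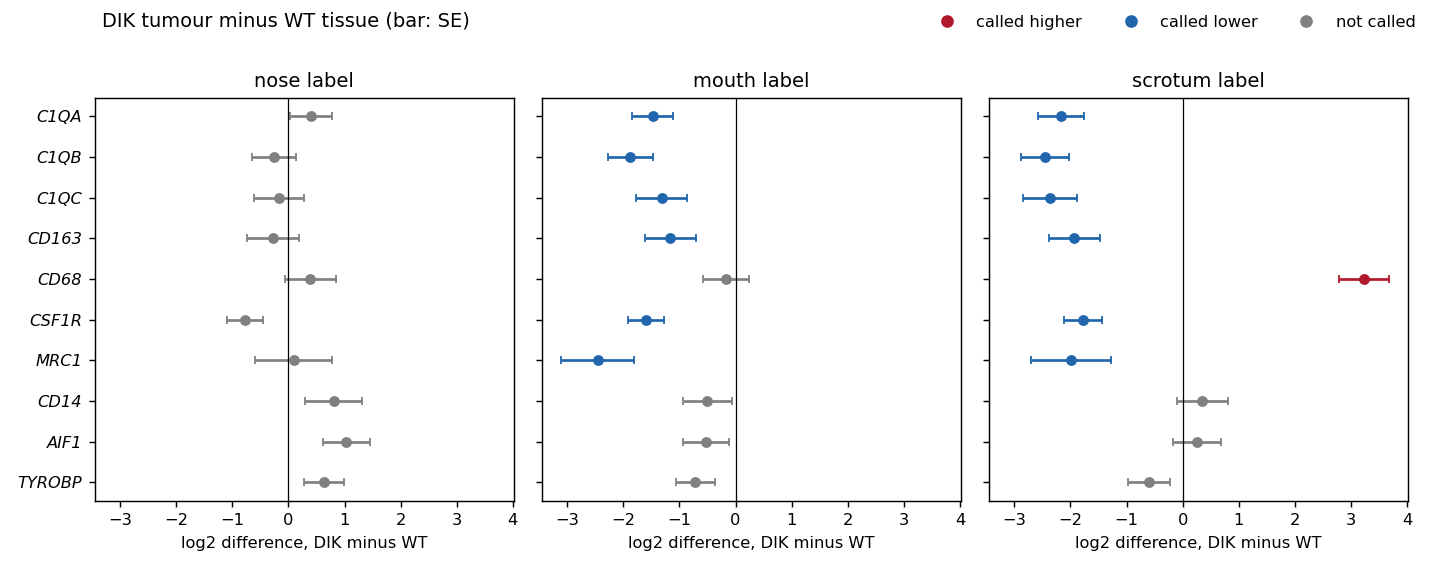
Log2 difference between DIK tumour and WT tissue (horizontal axis, DIK minus WT) for each of the 10 genes at each tissue label, with SE as the bar. Blue points were called lower, red higher and grey were not called at an adjusted p under 0.05. The C1q chains, CSF1R, CD163 and MRC1 are blue at the mouth and scrotum labels, CD68 is red at the scrotum label, and all points are grey at the nose label.

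The mean of the DIK-WT differences over the 3 labels was lower for the same 6 genes and higher for CD68. It was -1.38 ± 0.19 for CSF1R (adjusted p = 4.27e-06), -1.53 ± 0.24 for C1QB (adjusted p = 1.75e-05) and 1.15 ± 0.25 for CD68 (adjusted p = 0.000516). The mean includes the nose label, at which none was called, and for CD68 it rests on the scrotum label. In that contrast 33% of all tested genes were called lower and 31.2% higher. CD14, AIF1 and TYROBP differed by 0.22 ± 0.27, 0.26 ± 0.24 and -0.23 ± 0.21 and were not called.

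Whether the DIK-WT difference itself changed with the label was tested as an interaction. The scrotum difference was below the nose difference for C1QA by -2.57 ± 0.55 (adjusted p = 0.00911), for C1QB by -2.20 ± 0.58 (adjusted p = 0.0275) and for C1QC by -2.19 ± 0.65 (adjusted p = 0.0467), and above it for CD68 by 2.84 ± 0.62 (adjusted p = 0.00972). Of all tested genes 4.46% were called lower and 3.19% higher in this interaction. The C1QB call was lost without DIK nose replicate 1 or 3, DIK scrotum replicate 1, 2 or 3, WT nose replicate 1 or 3, or WT scrotum replicate 3 (adjusted p = 0.0537 to 0.0792), and the C1QC call was lost under 18 of 29 alternatives. Leaving out 1 library at a time, it held only without DIK nose replicate 2, WT mouth replicate 3 or WT scrotum replicate 1 or 2, and the others gave an adjusted p of 0.053 to 0.121. Between mouth and nose, C1QA alone of the 10 was called, at -1.88 ± 0.52 (adjusted p = 0.0313), where 8.6% of all tested genes were, and that call was lost without DIK nose replicate 1 or 3, DIK mouth replicate 1, 2 or 3, WT nose replicate 1 or 3, or WT mouth replicate 3 (adjusted p = 0.0517 to 0.102). Between scrotum and mouth CD68 alone was called, at 3.40 ± 0.60 (adjusted p = 0.000993), where 13.1% of all tested genes were. The interactions of CSF1R, CD163 and MRC1 with the label were not called, so their differences are not shown to depend on it.

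Among the tumours the C1q chains were ordered scrotum, mouth, nose from low to high. Scrotum against nose was called for C1QA (-2.45 ± 0.41, adjusted p = 0.00168), C1QB (-2.13 ± 0.43, adjusted p = 0.00604) and C1QC (-2.25 ± 0.48, adjusted p = 0.00935) and for CD68 (2.70 ± 0.43, adjusted p = 0.00103), 4 of the 10 genes where 5.84% of all tested genes were called. The C1QC call was lost without DIK nose replicate 1 or DIK scrotum replicate 1 (adjusted p = 0.0555 and 0.058). Neighbours in that order were not called for C1q: mouth against nose gave 0 edgeR calls among the 10, where 1.54% of all tested genes were called, and scrotum against mouth gave CD68 alone, where 2.88% were. For mouth against nose, 5 of the 10 had an unadjusted p under 0.05, DESeq2 called 0 and limma-voom called 4. The largest p of those 5, that of C1QC, ranked 1457 among the 12895 tested genes. In WT tissue edgeR called none of the 10 in mouth against nose, scrotum against nose or scrotum against mouth, where 19.8%, 6.05% and 23% of all tested genes were called. In the same order, 2, 1 and 1 of the 10 had an unadjusted p under 0.05, DESeq2 called 0, 0 and 0, and limma-voom called 1, 0 and 1. The largest p among them, of MRC1, CD163 and CD163, ranked 3787, 2005 and 3084 among all tested genes, so many other genes passed that cut.

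The ligands of CSF1R were also lower in tumours, CSF1 at all 3 labels and IL34 at the mouth and scrotum labels. CSF1, the main growth factor of macrophages, differed by -1.57 ± 0.50 at the nose, -1.68 ± 0.55 at the mouth and -1.75 ± 0.56 at the scrotum label, and was called at all 3 (adjusted p = 0.017, 0.018 and 0.016). Its level was 0.357 to 3.27 CPM over the DIK libraries and 1.91 to 10.01 CPM over the WT libraries. IL34, the other ligand, had 1.67, 2.14 and 1.25 CPM in scrotum tumours, against 10.9, 6.07 and 21.0 CPM in WT, a difference of -2.84 ± 0.56 (adjusted p = 0.0005). It differed by -1.62 ± 0.51 at the mouth label (adjusted p = 0.014) and by -1.36 ± 0.59 at the nose label, where it was not called (adjusted p = 0.07). CSF2RB, a receptor chain for GM-CSF, was higher at the mouth and scrotum labels (1.86 ± 0.58 and 2.22 ± 0.64) and had no counts in the WT nose libraries. It was at most 1.25 CPM in any WT library and passed the count filter through the DIK libraries, in which it was higher. CSF1 and IL34 passed that filter through the WT libraries, in which they were higher. These calls share the limit given for MRC1.

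Transcripts of the proteins that act with C1q were lower at all 3 labels. C1R and C1S, the proteases that C1q carries, differed by -1.73 ± 0.53 and -2.72 ± 0.63 at the nose, -3.94 ± 0.58 and -5.64 ± 0.72 at the mouth, and -3.66 ± 0.58 and -6.00 ± 0.74 at the scrotum label. C1S averaged 25.5 ± 15.9 CPM in nose tumours, where the C1q chains were not called, and 168 ± 16.7 CPM in WT nose tissue. SERPING1, which inhibits both proteases, averaged 20.1 ± 9.36 CPM in scrotum tumours and 585 ± 479 CPM in WT. The next components, C2, C4A and C3, were lower at all 3 labels as well. C3, on which all complement pathways converge, averaged 0.928 ± 0.677 CPM in mouth tumours and 80.1 ± 42.9 CPM in WT. Of 8 tested genes of the cascade list, 6 were lower at each label, where 20.1%, 24.3% and 24% of all tested genes were called lower at the nose, mouth and scrotum. At the mouth label 1 was higher, and the median differences were -2.15, -4.50 and -3.78 at the nose, mouth and scrotum. In connective tissue C1R, C1S and SERPING1, unlike C1q, are made largely by fibroblasts. The 9 fibroblast genes summed to 815 to 3807 CPM over the DIK libraries and 4958 to 32120 CPM over the WT libraries, with none at 0, and the part of fibroblasts in this result was not tested.

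**Figure D4:**
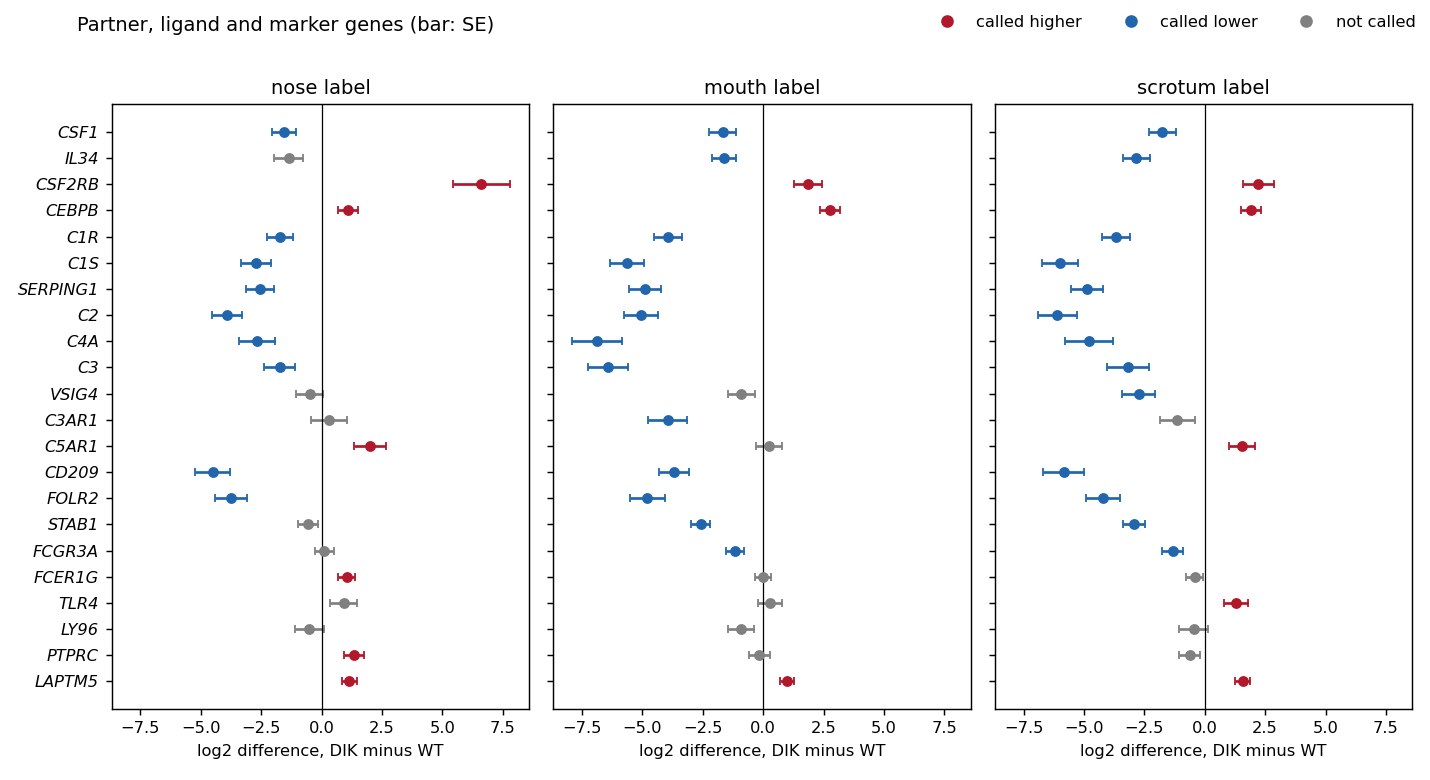
Log2 difference between DIK tumour and WT tissue (horizontal axis, DIK minus WT) for ligands, partners and markers related to the 10 genes, at each tissue label, with SE as the bar. Blue points were called lower, red higher and grey were not called. CSF1, C1R, C1S and SERPING1 are blue at all 3 labels, and LAPTM5 is red at all 3; CSF2RB had no counts in WT nose tissue, so its size at that label is no estimate of a fold.

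Of 13 tested complement receptors and regulators, 3 were higher and 4 lower at the nose, 5 lower at the mouth, and 4 higher and 3 lower at the scrotum label. Of all tested genes, 21.9%, 22.7% and 19.4% were called higher and 20.1%, 24.3% and 24% lower at those labels. Without WT scrotum replicate 2, 3 of the list were higher and 3 lower at the scrotum label. VSIG4, a complement receptor of resident macrophages, differed by -2.74 ± 0.69 at the scrotum label (adjusted p = 0.0036) and was not called at the nose or mouth. C3AR1, the receptor for the C3a fragment, was lower at the mouth label by -3.94 ± 0.81. C5AR1, the receptor for C5a on neutrophils and macrophages, averaged 11.7 ± 0.956 CPM in scrotum tumours and 3.95 ± 2.22 CPM in WT, and was higher at the nose (2.00 ± 0.65) and scrotum labels (1.54 ± 0.53). Its scrotum call was lost without WT scrotum replicate 2 (1.30 ± 0.58, adjusted p = 0.0669).

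Markers of resident macrophages were mostly lower at every label, the nose included. Of 12 tested genes, 8 were lower at the nose, 9 at the mouth and 8 at the scrotum label, with 1 higher at each, where 20.1%, 24.3% and 24% of all tested genes were called lower, and the medians were -1.92, -2.89 and -1.81. Without WT scrotum replicate 2, 10 were lower and 1 higher at the scrotum label. The gene higher at the nose and mouth labels was F13A1, the A subunit of coagulation factor XIII, and at the scrotum label HMOX1, the haem-degrading enzyme that macrophages induce after uptake by CD163. HMOX1 averaged 45.9 ± 23.8 CPM in scrotum tumours and 1.39 ± 1.25 CPM in WT, a difference of 4.84 ± 0.81 (adjusted p = 0.0002). FOLR2, a folate receptor of perivascular macrophages, averaged 3.79 ± 2.87 CPM in nose tumours and 50.3 ± 8.81 CPM in WT, a difference of -3.74 ± 0.67 (adjusted p = 0.00041). CD209, a C-type lectin, averaged 0.775 ± 0.443, 2.06 ± 0.931 and 0.305 ± 0.282 CPM in nose, mouth and scrotum tumours, against 18.1 ± 10.9, 27.3 ± 12.6 and 22.9 ± 18.7 CPM in the matching WT tissue, and was called lower at all 3 labels. STAB1, a scavenger receptor that lymphatic and sinusoidal endothelium also makes, was lower at the mouth (-2.60 ± 0.41) and scrotum (-2.92 ± 0.45) and not called at the nose (-0.56 ± 0.41). GAS6, SELENOP and SLC40A1 in that list are also made by other cells of connective tissue.

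PTPRC, the phosphatase CD45 of all leukocytes, averaged 8.28 ± 3.15 CPM in nose tumours and 3.49 ± 1.43 CPM in WT, a difference of 1.34 ± 0.43 (adjusted p = 0.018). It differed by -0.16 ± 0.44 at the mouth and -0.63 ± 0.43 at the scrotum label, neither called. PTPRC was sparse, with 2 to 49 counts in a library. LAPTM5, a lysosomal protein of leukocytes, averaged 90.1 ± 5.69 CPM in scrotum tumours and 30.3 ± 13 CPM in WT, and was higher at all 3 labels. Of 9 tested genes of the pan-leukocyte list, 3 were higher at the nose, 1 at the mouth and 2 at the scrotum label, where 21.9%, 22.7% and 19.4% of all tested genes were, and the others were not called. Without WT scrotum replicate 2 there was 1 at the scrotum label. Their medians were 0.604, -0.746 and 0.0215.

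The factors and receptors that act beside CD14 and TYROBP showed no common direction. TLR4, the receptor to which CD14 hands lipopolysaccharide, differed by 1.28 ± 0.50 at the scrotum label (adjusted p = 0.046; 0.0568 without WT scrotum replicate 2) and was not called at the others, and its partner LY96 was not called at any label. MYD88, the adaptor of those receptors, was higher at all 3 labels, by 1.70 ± 0.45, 1.65 ± 0.38 and 1.67 ± 0.41 at the nose, mouth and scrotum. FCER1G, an adaptor of the same kind as TYROBP, was higher at the nose label by 1.04 ± 0.35 and not called at the mouth (-0.02 ± 0.33) or scrotum (-0.42 ± 0.35). FCGR3A, an antibody receptor that signals through FCER1G, was lower at the mouth (-1.17 ± 0.38) and scrotum (-1.33 ± 0.42). TREM2, whose signals TYROBP carries, reached at most 1.87 CPM in any library and was not tested. SPI1, the factor that defines the myeloid lineage, was called at the scrotum label alone, at 0.91 ± 0.32, and not without WT scrotum replicate 2 (0.78 ± 0.36, adjusted p = 0.0776).

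The pattern of C1q over the 18 libraries was compared with 6249 named genes of at least 10 CPM on average. Likeness was the root mean square difference of log2 CPM from the mean of the 3 C1q chains, each profile centred on its own mean. The C1q profile itself lay 0.965 from a flat line, and the median gene lay 1.22 from C1q. The nearest 10 genes were SLA-1, B2M, SLA-5, SLA-2, PDK3, SLA-3, ABHD4, CSF1R, FCGR3A and TCF4, at 0.384 to 0.490. SLA-1, SLA-2, SLA-3 and SLA-5 are class I histocompatibility genes of pigs, whose near-identical copies make their counts uncertain, and B2M encodes their shared light chain. B2M differed by 0.32 ± 0.35 at the nose, -1.82 ± 0.36 at the mouth and -1.63 ± 0.36 at the scrotum label. Since the nearest genes were picked from these same libraries, differences like those of C1q follow from the choice. Among the 7 other genes described here, CSF1R was rank 8 at 0.468, CD163 rank 160 at 0.743, TYROBP rank 385 at 0.814 and MRC1 rank 482 at 0.837. AIF1, CD14 and CD68 were farther away, at 0.962, 1.34 and 1.87, and CD68 was rank 5160. The low counts of CD163, MRC1 and AIF1 add counting noise to their distances.

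**Figure D5:**
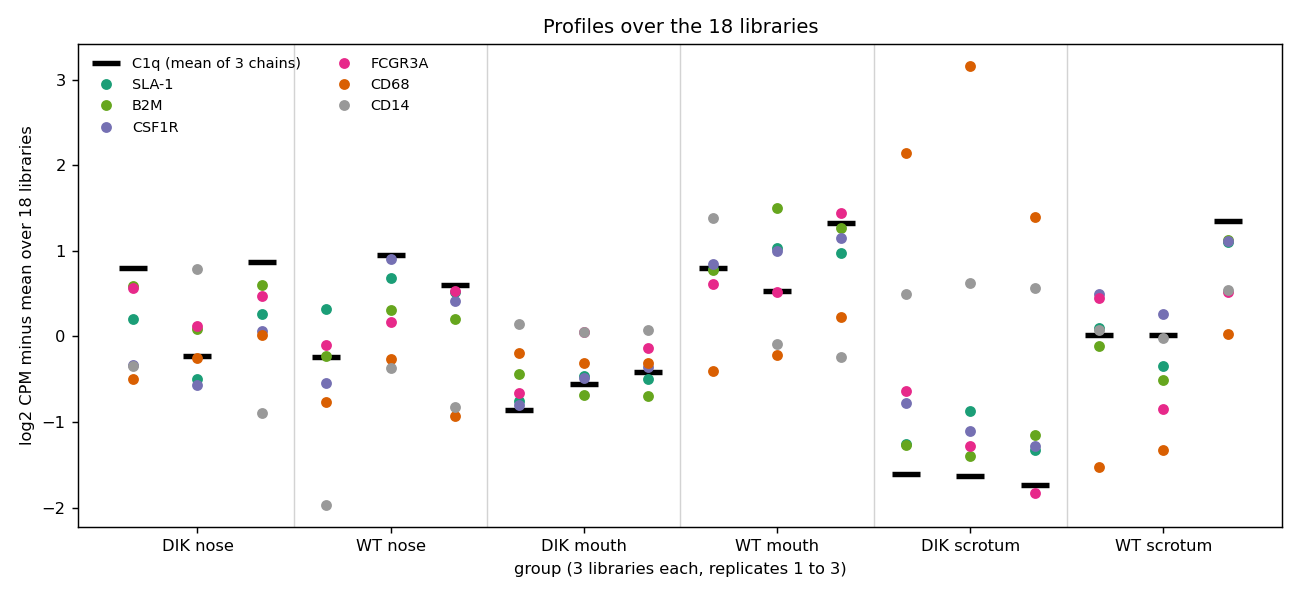
Log2 CPM minus each gene's mean over the 18 libraries (vertical axis) for the mean of the 3 C1q chains, SLA-1, B2M, CSF1R, FCGR3A, CD68 and CD14, with the libraries grouped by genotype and label (horizontal axis) and 1 point per library. CSF1R, FCGR3A, SLA-1 and B2M lie near the C1q bars in most libraries, as they were among the genes ranked nearest to C1q over these same libraries. CD68 lies far above the C1q bars in the scrotum tumours.

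Proportions among the 10 genes in the scrotum tumours lay outside the range of all other libraries for CD68 and for C1q. CD68 held 45% to 73.3% of the counts of the 10 genes in those tumours, against 4.15% to 5.59% in WT scrotum tissue. The C1q chains held 12.4% to 22.5% in the scrotum tumours, against 58.5% to 69.7% in WT. The total includes CD68, so a larger share of CD68 lowers that of C1q by itself, and the 2 shares are not separate results. In the other tumours C1q held 50.2% to 57.4% at the mouth and 51.6% to 70.0% at the nose label, where WT libraries held 60.4% to 71.0% and 69.9% to 72.7%. DIK nose replicate 2 stood apart from the other nose tumours, with 31.4 CPM of C1QC beside 69.9 and 71.3 CPM, and 16.1 CPM of CD14 beside 7.02 and 4.63 CPM. The CD14 counts per 100 C1q counts were 54.8 to 61.1 in scrotum tumours and 6.37 to 12.6 in WT scrotum tissue, although the level of CD14 was not called.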

How the data were processed

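Tissue went into RNAlater, RNA was isolated with TRIzol, and the library kit was VAHTS mRNA-seq V3, per the labels' protocols. The submitters' processing notes name fastp, HISAT2 2.1.0 and HTSeq 0.11.2. Build, annotation and strand are not stated, and no coordinates are printed. The deposited values are the authors' raw read counts per gene.

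Here counts were scaled by TMM and filtered by filterByExpr (minimum count 10, total 15), which retained 99.1% or more of every library. Some named genes passed this filter only through the genotype in which they were higher. Among them were MRC1, CSF1, IL34, C2, C3, C4A, C3AR1, CD36 and CD209 through WT, and CSF2RB and CXCR2 through DIK. The 18 libraries entered 1 edgeR 4.0.16 quasi-likelihood model (R 4.3.3) with a mean for each of 6 groups. Benjamini-Hochberg adjustment covered all 12895 tested genes; calls have an adjusted p under 0.05. SE is |log2 difference|/√F, and 95% intervals are the estimate plus or minus the normal multiple of the SE. Floors and counts carry counting error only.

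The members and the 23 other lists were chosen with earlier results of these data known. Named genes are the 10 members, their fixed partners, up to 6 genes per list with the smallest adjusted p over the mean of the labels, and the 10 genes most like C1q. CTSL, CTSD, HMOX1, SPI1, F13A1, EIF4A1 and MPDU1 fall outside that rule and were named after their values were seen. CD36, APOE, GPNMB and PLIN2 were named as the genes of their list called lower at the scrotum label.

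In simulated data, 51%, 57.7% and 42.4% of 4-fold changes but only 2.08%, 6.12% and 4.21% of 2-fold changes were called at the nose, mouth and scrotum labels. Those fits gave 54, 63 and 47 calls, against 5426, 6054 and 5607 in the real data. With so few calls, the adjusted threshold asked for a smaller unadjusted p in the simulation. Its shares are therefore not the power of the tests reported here. Alternatives were other scalings and filters, DESeq2 1.42.0, limma-voom (limma 3.58.1), fits on fewer groups, replicate numbers as blocks, and left-out libraries.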

Additional observations from a re-analysis of the deposited data

Results flagged for a closer look

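With 3 libraries a group, single libraries could not be tested as outliers. In 6 cases the DIK-WT difference of a gene described here differed between labels by edgeR's test of the interaction. C1QA differed between mouth and nose by -1.88 ± 0.52 (log2, adjusted p = 0.0313) and between scrotum and nose by -2.57 ± 0.55 (adjusted p = 0.00911). C1QB and C1QC differed between scrotum and nose by -2.20 ± 0.58 (adjusted p = 0.0275) and -2.19 ± 0.65 (adjusted p = 0.0467). CD68 differed between scrotum and nose by 2.84 ± 0.62 (adjusted p = 0.00972) and between scrotum and mouth by 3.40 ± 0.60 (adjusted p = 0.000993). The 3 C1q chains are 1 complex encoded by neighbouring genes, so their flags are not independent of each other.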

How the results depend on the processing

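Over 1456 values of single genes under alternatives, 1375 kept direction and side of the threshold, 54 lost a call, 14 gained one and 13 changed sign, none of the last called; the causes were not tested. CD68 at the scrotum label kept its call under all 29 alternatives (log2 2.64 to 3.94).

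Counts of the 10 genes called moved as follows. The share of all tested genes called under the same alternative is not given. These counts therefore show only how calls of the 10 moved, not whether they moved more than other genes. DIK-WT at the nose gave 1 with median-of-ratios or upper-quartile scaling, with 10 CPM required in 3 libraries and without WT nose 1 and WT scrotum 2 together, and 2 with limma-voom. The mouth-nose interaction gave 2 by library size only or on the groups compared alone, 5 with limma-voom, and 3 without DIK nose 2, WT mouth 1 and WT scrotum 2, a trio chosen after seeing the data. The scrotum-nose interaction gave 2 on the groups compared alone. Among tumours, mouth against nose gave 4 with limma-voom and on the groups compared alone, 2 without the pair and 3 without the trio; scrotum against nose gave 7 with limma-voom; scrotum against mouth gave 2 by library size only and with limma-voom, and 3 on the groups compared alone. In WT, mouth against nose gave 1 with upper-quartile scaling, library size only, no filter, the 10 CPM filter, limma-voom and without the trio; scrotum against mouth gave 2 by library size only and 1 with limma-voom, without the pair and without the trio; scrotum against nose gave 2 without the trio.

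Leaving out 1 library at a time gave 0 to 1 calls at the nose, 4 to 7 at the mouth and 6 to 7 at the scrotum; 0 to 3, 2 to 4 and 1 to 1 for the mouth-nose, scrotum-nose and scrotum-mouth interactions; 0 to 3, 3 to 5 and 1 to 1 for the same pairs of tumours; and 0 to 1, 0 to 0 and 0 to 1 for those of WT.

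Signs changed for CD14 at the mouth (0.052 with limma-voom, 0.22 without the trio, -0.77 to 0.22 leaving out 1 library), MRC1 at the nose (-0.12 without the pair, -0.53 to 0.56), C1QC (0.045 without the trio, -0.41 to 0.15) and C1QB (-0.577 to 0.061) at the nose, and CD68 at the mouth (-0.344 to 0.039).

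Replicate numbers did not pair the samples: deviations of same-numbered libraries correlated at -0.0483 to 0.0886, and 3 of 18 libraries correlated best with their own number. With the replicate number as a block, the mouth-nose interaction gave 2 calls and MRC1 at the nose was -0.008.

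With WT nose 1 at 418665 counts, differences of CD163, MRC1 and AIF1 at the nose label rest on few counts. By library size only, the median of all genes shifted to -0.287 at the mouth and -0.208 at the scrotum.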

Other observations

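The monocyte attractant CCL2 averaged 31.5 ± 1.04 CPM in scrotum tumours and 4.90 ± 3.19 CPM in WT (SD, n = 3 each). It differed by 2.67 ± 0.35 on the log2 scale (edgeR adjusted p = 8.7e-06), and was also higher in nose tumours at 1.65 ± 0.37. CXCL12, a chemokine of connective tissue, was lower at all 3 labels, by -3.26 ± 0.47, -2.51 ± 0.45 and -5.84 ± 0.58 at the nose, mouth and scrotum. CXCR2, a chemokine receptor of neutrophils, averaged 15.6 ± 5.63 CPM in scrotum tumours and 2.35 ± 1.88 CPM in WT, a difference of 2.61 ± 0.51, and was called higher at the nose and mouth labels as well, where WT levels were at most 0.364 CPM. MS4A2, a chain of the mast cell receptor for IgE, was lower at the mouth (-2.34 ± 0.49) and scrotum (-3.68 ± 0.54) and not called at the nose (-0.53 ± 0.47). The other mast cell genes of its list were sparse in both genotypes. CPA3 had counts in WT scrotum tissue alone, and HDC and FCER1A reached at most 1.45 and 2.18 CPM in any library. Outside WT nose tissue KIT reached at most 2.09 CPM. MS4A2 alone is therefore no measure of mast cells here. F13A1, a coagulation factor of macrophages and platelets, was higher at the nose (1.60 ± 0.41) and mouth (1.27 ± 0.35) and lower at the scrotum label (-1.10 ± 0.38).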
